A study of Mus musculus with 4 samples.

Results

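The genes described here are 30 that encode enzymes and regulators of cholesterol and fatty acid synthesis. They were taken by symbol, as a list of pathway genes, from the 32285 genes of the matrices. The rule itself uses no measured value, but the list was drawn up with earlier results of these data known. All 30 were detected in the summed counts of every one of 5 cell classes, and all 30 passed the filter on low counts of the class test. Cells came from the hippocampus or the sensory cortex of WT (wild-type) mice and were sequenced singly by droplet capture of 3' RNA ends. The mice had received DOCA-salt (deoxycorticosterone acetate with salt, which is used to raise blood pressure) or a sham treatment. Each tissue and treatment had 1 library, 4 in all. Where 4 values follow each other below, the first pair is hippocampus and the second pair cortex, with DOCA-salt before sham in each. Each group had 3 mice by the labels, which leave the pooling of cells unstated. Strain, age, dose and duration are not given in the sources used here.

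The labels contradict each other on treatment. Groups follow the library titles. The separate treatment field reads sham in both cortex libraries and DOCA-salt in both hippocampus libraries, and so goes against 2 of the 4 titles. If the field were right, no comparison within a tissue would be one of treatment.

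The libraries held 11159 to 11402 barcodes and 66824217 to 70173987 unique molecular identifiers (UMIs, 1 per captured transcript), and between 94 and 105 barcodes were shared by any pair of libraries. After filtering, 10350 to 10777 cells remained, with medians of 5540 to 5848 UMIs. Cells were assigned to a class from marker genes alone, which placed 80.9% to 88.3% of them in 5 classes. There were 3657, 4912, 2812 and 2940 oligodendrocytes and 1544, 807, 3847 and 3202 astrocytes. Microglia numbered 2262 to 2582, endothelial cells 460 to 821 and pericytes 51 to 105 per library. The hippocampus sham oligodendrocytes stood apart in a joint clustering, where 65.5% of them fell in a cluster that was not among the 3 main ones of the other libraries. None of the 30 genes was among the 2000 variable genes behind that clustering. Levels are the class's UMIs for a gene in a library, per 1000000 UMIs of that class and library (CPM). They count 3' ends and are not scaled by transcript length.

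Cholesterol is built from acetyl-CoA through mevalonate to farnesyl diphosphate, then through squalene and lanosterol to the finished sterol. Fatty acids are made from the same precursor by carboxylation and chain assembly, and are then elongated and desaturated. The transcription factors encoded by Srebf2 and Srebf1 drive these genes, mainly the sterol branch and the fatty acid branch respectively, and the protein of Insig1 holds them in the endoplasmic reticulum when sterol is plentiful. In the brain cholesterol is made locally, since lipoproteins of the blood do not cross the blood-brain barrier. Oligodendrocytes use it for myelin, and astrocytes export it in lipoprotein particles.

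Promoter windows of 250 bases before an annotated start were available for 24 of the 30 genes, from RefSeq on GRCm38.p6. A sterol regulatory element core, TCACNCCAC on either strand, was present in the window of 1 of these 24, Hmgcs1, against 1.23% of the 27025 genes with a window. The NF-Y box CCAAT was present in 19 of 24 (79.2%), against 37.5% of all genes. The Sp1 box GGGCGG was likewise in 19 of 24, against 35.4%, and the E-box CACGTG in 5 of 24 (20.8%), against 6.86%. The 4 motifs were searched separately on both strands, so their matches may share bases. NF-Y and Sp1 are known partners of the Srebf proteins on sterol genes. A match is a description of letters and no evidence of binding. A gene with several annotated starts was counted when any of its windows matched.

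The windows shown are those of Hmgcs1, as the one with a sterol element core, of Mvk, which had 5 NF-Y boxes, of Ebp, which separates oligodendrocytes from astrocytes below, and of Srebf1, which leads the treatment comparison. The Srebf1 window precedes an internal start inside the gene and held 1 NF-Y box. Capitals mark CCAAT or its reverse complement ATTGG and, in Hmgcs1, also the sterol element core at 137 bases before the start. Positions are chr13:119690101-119690350 on the plus strand, chr5:114444019-114444268 on the plus strand, chrX:8193513-8193762 on the minus strand and chr11:60210472-60210721 on the minus strand, all GRCm38.p6 and written 5′ to 3′ along the gene.
Hmgcs1: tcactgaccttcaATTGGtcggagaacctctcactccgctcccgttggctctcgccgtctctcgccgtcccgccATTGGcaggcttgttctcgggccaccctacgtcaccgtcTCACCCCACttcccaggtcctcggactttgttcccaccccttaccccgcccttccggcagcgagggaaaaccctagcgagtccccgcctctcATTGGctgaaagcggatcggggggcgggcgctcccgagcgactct
Mvk: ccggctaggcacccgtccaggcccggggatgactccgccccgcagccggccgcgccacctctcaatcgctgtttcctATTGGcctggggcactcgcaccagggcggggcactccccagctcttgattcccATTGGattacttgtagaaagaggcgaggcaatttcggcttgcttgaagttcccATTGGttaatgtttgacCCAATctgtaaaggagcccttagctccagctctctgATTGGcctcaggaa
Ebp: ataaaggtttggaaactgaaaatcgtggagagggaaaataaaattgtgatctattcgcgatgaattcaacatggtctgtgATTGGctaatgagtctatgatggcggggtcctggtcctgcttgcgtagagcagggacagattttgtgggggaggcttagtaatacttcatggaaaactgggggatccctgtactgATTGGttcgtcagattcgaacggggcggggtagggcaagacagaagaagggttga
Srebf1: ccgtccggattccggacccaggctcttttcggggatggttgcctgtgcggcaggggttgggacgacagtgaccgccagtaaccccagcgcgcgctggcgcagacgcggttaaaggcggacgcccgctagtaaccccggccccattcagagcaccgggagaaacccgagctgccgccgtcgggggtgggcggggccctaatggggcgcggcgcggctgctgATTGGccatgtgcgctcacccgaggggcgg

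The first question was which cells carry these transcripts. Astrocytes had the highest mean CPM for 24 of the 30 genes and oligodendrocytes for the other 6, which were Fdps, Ebp, Acly, Elovl6, Scd1 and Scd2. For 22 of the 24 the astrocyte level was the highest in all 4 libraries. The summed CPM of the 30 genes was 5171 ± 501 in astrocytes and 3722 ± 164 in oligodendrocytes (SD, n = 4 libraries). Pericytes had 1219 ± 172, endothelial cells 1027 ± 145 and microglia 687 ± 78.3. Microglia had the lowest mean of the 5 classes for 20 genes. The spread here is over libraries that also differ in tissue and treatment.

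Part of the signal in the low classes can be free RNA of other cells. For each class, the level due to the other 4 classes was estimated from how much of their marker RNA it held. By that estimate at least 50% of the CPM was foreign in every library for 1 gene in oligodendrocytes, 0 in astrocytes, 8 in microglia, 5 in endothelial cells and 3 in pericytes. The highest foreign percentage of any gene in astrocytes was 25.6%, for Ebp. Estimates above 100%, which occur for 4 genes in microglia, 5 in endothelial cells and 6 in pericytes, show how rough the method is. The class marker sets had 8 genes each, and none was at 0 in the sums of oligodendrocytes, astrocytes, microglia or endothelial cells.

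**Figure D1:**
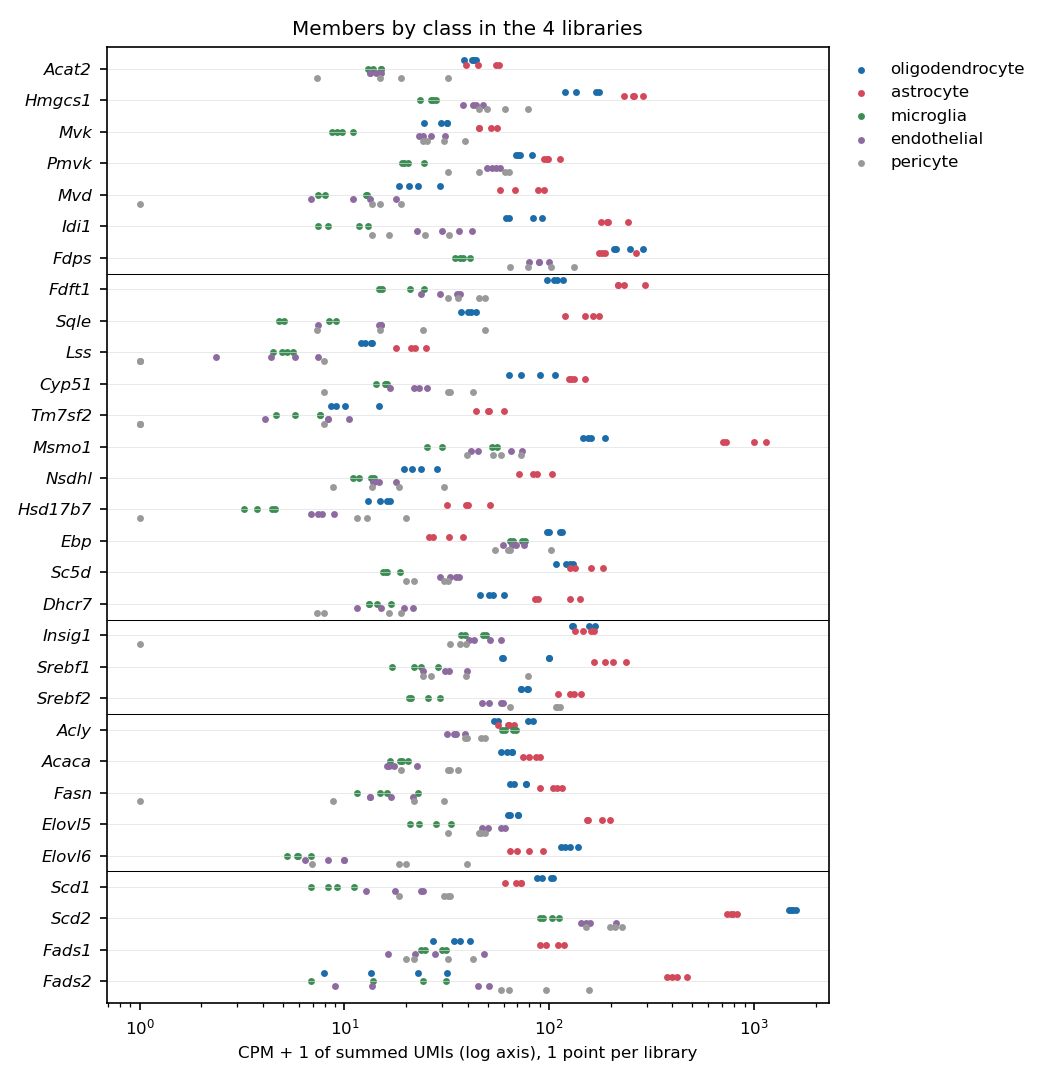
Level of each of the 30 genes (CPM + 1 on a log axis) in 5 cell classes, 1 point per library, with lines between the role groups. Astrocyte and oligodendrocyte points lie to the right of the other classes for most genes, and Mvk, Ebp, Acly, Srebf2 and Fads2 depart from that order.

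The 7 mevalonate genes carry acetyl-CoA to farnesyl diphosphate. Together they had 934 ± 123 CPM in astrocytes, 624 ± 84.8 in oligodendrocytes and 279 ± 51.0 in pericytes (SD, n = 4 libraries). Fdps, the farnesyl diphosphate synthase, was at 208, 247, 210 and 287 CPM in oligodendrocytes. In astrocytes it was at 181, 174, 186 and 266 CPM, so the 2 classes overlapped. Endothelial cells had 88.1, 78.4, 98.8 and 88.1 CPM of it, and pericytes 101, 63.4, 131 and 77.5. Fdps was thus a transcript of both macroglial classes, with every endothelial value below every value of theirs.

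Hmgcs1, which makes the HMG-CoA that feeds the pathway, was at 259, 232, 256 and 287 CPM in astrocytes. Its oligodendrocyte values were 135, 169, 119 and 174 CPM, all below every astrocyte value. Microglia had 22.3, 25.5, 27.1 and 26.0 CPM, of which 47.4% to 63.1% was estimated to be foreign. Idi1, the isopentenyl diphosphate isomerase, showed the same order, with 193, 191, 179 and 241 CPM in astrocytes and 60.5, 82.4, 62.5 and 91.3 in oligodendrocytes. In microglia Idi1 was at 9.16 ± 2.69 CPM (SD, n = 4), and 86.3% to 104% of that was estimated as foreign, so a level of their own was not shown. Mvd, which decarboxylates mevalonate diphosphate, averaged 3.49-fold more in astrocytes than in oligodendrocytes. Acat2, Mvk and Pmvk differed less, with astrocyte means 1.18-fold, 1.69-fold and 1.38-fold above the class next in order. For Mvk that class was pericytes, with a mean of 28.9 CPM against 28.3 in oligodendrocytes. For Acat2 the ranges of astrocytes and oligodendrocytes overlapped. For Pmvk the edgeR contrast of oligodendrocytes against astrocytes below gave a log2 change of -0.07, with an adjusted p of 0.57. For Hmgcs1, 557 exonic bases are shared with the antisense gene Gm48342.

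The 11 genes of the squalene and sterol steps separated the classes most in absolute level, with 1901 ± 351 CPM in astrocytes, 725 ± 72.7 in oligodendrocytes and 201 ± 23.3 in microglia. Msmo1, which removes methyl groups from the sterol ring, had the highest astrocyte mean of the 30 genes, at 727, 707, 996 and 1141 CPM. In oligodendrocytes it was at 146, 159, 154 and 186 CPM, a mean 5.55-fold lower with no overlap. Cortex astrocytes were above hippocampus astrocytes. Sqle, the squalene epoxidase, was at 148, 118, 162 and 175 CPM in astrocytes against 36.0 to 43.0 in oligodendrocytes. Tm7sf2, a sterol reductase, had a mean 5.24-fold higher in astrocytes than in oligodendrocytes, although its exons share 532 bases with Vps51 on the same strand. Nsdhl and Hsd17b7, which act after Msmo1, were 3.83-fold and 2.80-fold higher in astrocytes, and Fdft1, the squalene synthase, was 2.25-fold higher. Sc5d was near equal, with a ratio of 1.24 and overlapping ranges.

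Ebp, the sterol isomerase, ran against this order. It was at 96.1, 112, 98.7 and 115 CPM in oligodendrocytes and at 31.3, 37.1, 24.9 and 26.0 in astrocytes. Microglia had 72.7, 75.3, 63.6 and 65.9 CPM, of which 6.98% to 9.70% was estimated as foreign. Endothelial cells had 64.7, 58.5, 68.1 and 74.5 CPM and pericytes 101, 63.4, 53.6 and 62.0. Astrocytes were therefore lowest of the 5 classes for Ebp in all 4 libraries, in contrast to the genes before and after it in the pathway.

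By mean CPM all 3 regulators were highest in astrocytes, though Insig1 by little. Srebf1 was at 204, 164, 237 and 186 CPM in astrocytes and at 99.1, 58.3, 98.9 and 58.1 in oligodendrocytes. Within both classes the DOCA-salt libraries were above the sham library of the same tissue, as taken up below. Srebf2 was at 126, 110, 143 and 131 CPM in astrocytes and stayed between 72.1 and 77.6 in oligodendrocytes. Pericytes reached 112, 63.4, 107 and 109 CPM of Srebf2, from 10 to 32 UMIs per library. Insig1 was close in the 2 macroglial classes, at 145 ± 19.1 CPM in oligodendrocytes and 150 ± 13.9 in astrocytes (SD, n = 4). In the edgeR contrast of the 2 classes below it was instead higher in oligodendrocytes, by 0.33 (log2), with an adjusted p of 0.021. Microglial Insig1 was lower than both. It was at 36.3, 38.0, 48.1 and 46.5 CPM, with 20.6% to 27.8% estimated as foreign.

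The 5 genes of fatty acid synthesis and elongation had 494 ± 25.7 CPM in astrocytes, 389 ± 9.36 in oligodendrocytes and 126 ± 12.3 in microglia. Acly, which supplies cytosolic acetyl-CoA, was the most evenly spread, at 65.7, 58.2, 67.6 and 60.0 CPM in microglia against 82.0, 78.0, 52.6 and 55.2 in oligodendrocytes. At most 9.35% of the microglial level was estimated as foreign. Elovl6, which elongates palmitate, was at 119, 114, 126 and 137 CPM in oligodendrocytes and at 63.4, 78.6, 68.3 and 91.9 in astrocytes. Microglia had 4.26, 5.84, 4.89 and 4.94 CPM of Elovl6, all of it within the foreign estimate. Elovl5, which elongates polyunsaturated fatty acids, instead averaged 2.59-fold more in astrocytes than in oligodendrocytes. Acaca and Fasn, the carboxylase and the synthase, had mean CPM 1.32-fold and 1.48-fold higher in astrocytes. In the edgeR contrast of oligodendrocytes against astrocytes below, their log2 changes were 0.0052 and -0.15. The adjusted p values were 0.96 and 0.26, so a difference of these genes depends on the scaling.

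Among the 4 desaturases the classes divided. Scd2, a stearoyl-CoA desaturase, had the most UMIs of the 30 genes in every class but astrocytes. It was at 1511, 1487, 1545 and 1606 CPM in oligodendrocytes and at 827, 790, 772 and 735 in astrocytes. Endothelial cells had 142, 150, 211 and 158 CPM, pericytes 150, 196, 226 and 209, and microglia 88.8, 103, 111 and 92.4. Of the microglial level 77.5% to 89.9% was estimated as foreign. Scd1, its close paralog, had 1.41-fold more in oligodendrocytes than in astrocytes, and reads that fit both copies could move between them.

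Fads2, the delta-6 desaturase of polyunsaturated fatty acids, was at 397, 376, 473 and 418 CPM in astrocytes. Oligodendrocytes had 12.5, 6.93, 30.8 and 21.9 CPM, the lowest mean of the 5 classes, and 62.7% to 74.4% of that was estimated as foreign. Pericytes had 62.9, 57.0, 95.3 and 155 CPM from 9 to 20 UMIs per library. Fads1, the delta-5 desaturase, averaged 3.04-fold more in astrocytes than in oligodendrocytes. The stearoyl-CoA desaturases were thus higher in oligodendrocytes, and the polyunsaturated ones in astrocytes.

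These differences were tested with edgeR's quasi-likelihood test on the 20 sums of 5 classes and 4 libraries, with library as a block. Each class was set against the mean of the other 4. A gene was called at a Benjamini-Hochberg adjusted p under 0.05 over 15793 genes and a change of at least 2-fold. The 4 libraries serve as replicates of a class, although each differs from the others in tissue, treatment or both. Since many genes differ between brain cell classes, each count is given with the share of all genes called in that direction. These shares belong to the main setting, and counts of this test under other scalings or settings stand without one.

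In astrocytes 26 of the 30 genes were higher, against 22.8% of all genes, and 1 was lower, against 16.3%. The median log2 fold change of the members was 1.94, with 0.05 over all genes. Higher members were 5 of 7 in the mevalonate group, 10 of 11 in the sterol group, all 3 regulators, 4 of 5 in fatty acid synthesis and all 4 desaturases. By edgeR the log2 fold change was 3.87 ± 0.16 (SE) for Fads2, with an adjusted p of 2.0e-17, 3.57 ± 0.10 for Msmo1 and 3.10 ± 0.12 for Sqle. The smallest called changes were those of Srebf2 at 1.05 ± 0.09 and Mvk at 1.09 ± 0.09. Ebp was the lower gene, at -1.57 ± 0.11 with an adjusted p of 8.0e-13.

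In oligodendrocytes 19 genes were higher, against 17.9% of all genes, and 1 was lower, against 19.8%. The median of the members was 1.33, with 0.09 over all genes. The mevalonate group contributed 4 of 7 higher genes, the sterol group 8 of 11, the regulators 2 of 3, fatty acid synthesis 3 of 5 and the desaturases 2 of 4. Elovl6 led by edgeR at 3.34 ± 0.10 (SE), with an adjusted p of 1.7e-20, then Scd2 at 3.13 ± 0.07 and Scd1 at 2.44 ± 0.10. Srebf1 at 1.02 ± 0.09 and Msmo1 at 1.04 ± 0.12 were just past the 2-fold limit. Fads2 was the lower gene, at -1.61 ± 0.20. Scaled to total UMIs without edgeR's composition factors (TMM), 15 genes were higher and 1 lower, since that scaling lowers the median of all genes in oligodendrocytes by 0.33.

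No gene of the set was higher in microglia, where 22.5% of all genes were, and 21 were lower, against 19.4%. The largest decreases by edgeR were those of Elovl6 at -2.59 ± 0.19 (SE), with an adjusted p of 6.0e-12, Idi1 at -2.45 ± 0.21 and Sqle at -2.43 ± 0.22. Dhcr7 at -1.02, Mvd at -1.06 and Fasn at -1.06 were the smallest. Without the 2-fold limit and at an unadjusted p under 0.05, 2 genes were higher in microglia by edgeR, Acly at 0.56 ± 0.11 and Ebp at 0.36 ± 0.09, and 0 were higher in endothelial cells or pericytes. DESeq2 also called 0 higher genes in these 3 classes. In endothelial cells 0 were higher, against 14.6%, and 9 were lower, against 12.4%, led by Elovl6 at -1.92 ± 0.20, Msmo1 at -1.24 ± 0.15 and Fasn at -1.24 ± 0.20, and ending with Fads2 at -1.15 ± 0.23, Fdft1 at -1.06 ± 0.14 and Cyp51 at -1.03 ± 0.18. The 7 mevalonate genes and the 3 regulators gave no call in endothelial cells. In pericytes 0 were higher, against 8.64%, and 11 were lower, against 9.55%, with Tm7sf2 at -2.48 ± 0.77, Dhcr7 at -2.00 ± 0.40 and Insig1 at -1.91 ± 0.29 at one end and Cyp51 at -1.20, Fdft1 at -1.04 and Acat2, at the 2-fold limit, at the other. Some of these pericyte changes rest on very few UMIs, with 2, 0, 0 and 0 for Tm7sf2 and 4, 1, 3 and 4 for Acat2. Their sizes are uncertain for that reason. Scaled to total UMIs, 5 genes were called lower in pericytes. Free RNA of the other classes raises the levels in these low classes, and its part in the counts was not tested.

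Oligodendrocytes and astrocytes were then compared directly, a contrast added after the class values were seen. Of the 30 genes 3 were higher in oligodendrocytes, against 17.4% of all genes, and 9 were lower, against 23.2%. Ebp was higher by 2.25 ± 0.11 (log2, SE), Scd2 by 1.38 ± 0.10 and Elovl6 by 1.11 ± 0.11, with edgeR adjusted p values of 8.4e-16, 1.7e-12 and 6.8e-10. Lower were Fads2 at -4.39 ± 0.23, Msmo1 at -2.03 ± 0.14, Tm7sf2 at -2.00 ± 0.14, Nsdhl, Sqle, Mvd, Fads1, Hsd17b7 and Idi1. Scaling mattered here, because the composition factors move the median of all genes by 0.39. With total UMIs 1 gene was higher, Ebp at 1.85, and 13 were lower. Acat2, Sc5d, Insig1 and Acaca, none of them called, changed sign between the scalings, while the 12 called genes kept theirs.

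**Figure D2:**
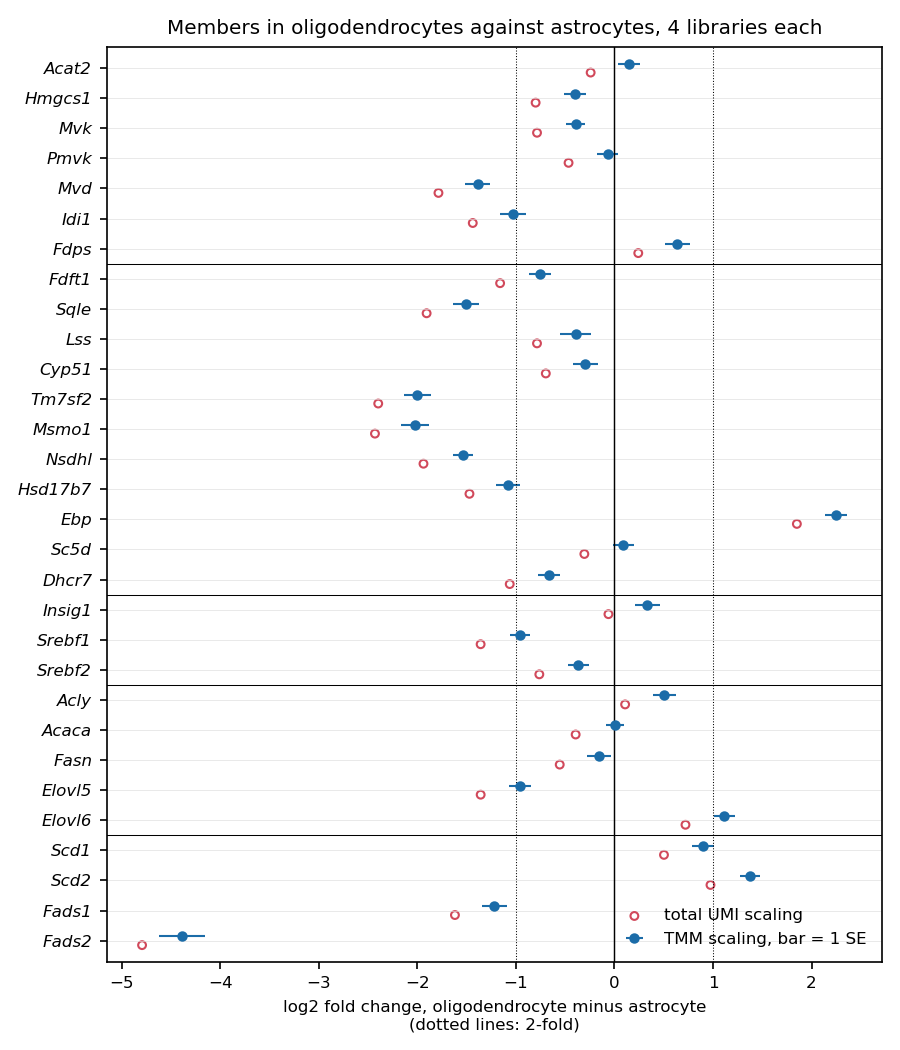
Log2 fold change of each gene in oligodendrocytes against astrocytes, 4 libraries each, with TMM scaling (filled, bar 1 approximate SE) and with total UMI scaling (open), dotted lines at 2-fold. Ebp, Scd2 and Elovl6 lie to the right at 2.25, 1.38 and 1.11, and Fads2 lies farthest left at -4.39.

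Lists of other genes of lipid metabolism were read in the same class test. Of 24 further sterol and fatty acid synthesis genes, 13 were higher and 3 lower in astrocytes, 10 were higher and 3 lower in oligodendrocytes, and 9 were lower and 0 higher in microglia. The shares of all genes called higher and lower, given above, were 22.8% and 16.3% in astrocytes, 17.9% and 19.8% in oligodendrocytes and 22.5% and 19.4% in microglia, and they apply to each list here. Of 18 tested genes for cholesterol uptake, efflux and storage, astrocytes had 7 higher and 5 lower, oligodendrocytes 4 and 7, and microglia 6 and 6. Of 12 fatty acid oxidation genes, 4 were higher and 0 lower in astrocytes, while 0 were higher and 4 lower in oligodendrocytes. The 13 myelin genes were all higher in oligodendrocytes, but Mog, Mag, Mobp and Cldn11 among them were also used to gate that class.

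The second question was what differed between DOCA-salt and sham. Within a tissue each treatment had 1 library, so the difference there has no replicate check. Ratios of CPM carry exact 95% intervals conditional on the 2 counts, which cover counting error only and hold neither the spread between mice nor that between preparations. In oligodendrocytes of both tissues, Srebf1 was 1.70-fold higher in the DOCA-salt library, and several enzyme genes of cholesterol synthesis were lower. Among genes with at least 20 UMIs in each pair, 1 other was past 1.5-fold in the same direction in both tissues, over the 5 classes. This was Fdps in pericytes, where both intervals included 1 and no library had over 29 UMIs.

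A test over both tissues, added after the ratios were seen, fitted tissue and treatment as additive terms to the 4 libraries of a class with edgeR's quasi-likelihood test. It has 1 residual degree of freedom and takes most of its estimate of the spread from other genes. With TMM scaling the part shared over genes weighed as 14.4 degrees of freedom in oligodendrocytes and 33.8 in microglia. In astrocytes that weight was infinite, so a gene's own spread between libraries had no part there. The 2 libraries of a treatment stand in for replicates although they differ in tissue, and whether they come from the same mice is not given. In oligodendrocytes 5 of the 30 genes were higher with DOCA-salt at an adjusted p under 0.05, against 9.69% of all genes, and 11 were lower, against 10%. The log2 change was 0.72 ± 0.05 (SE) for Srebf1, with an edgeR adjusted p of 3.6e-08, and -0.57 ± 0.05 for Cyp51, with 4.7e-07. All 11 lower genes, Cyp51, Idi1, Hmgcs1, Fdps, Msmo1, Ebp, Fdft1, Dhcr7, Mvd, Nsdhl and Sc5d, encode enzymes of cholesterol synthesis. Scaled to total UMIs, 5 were higher and 8 lower, against 1612 and 902 of the 14439 genes tested.

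In astrocytes the same test called Srebf1 and Fads1 higher, against 4.74% of all genes, and 6 genes lower, against 4.94%. Scaled to total UMIs, 2 remained lower, Elovl6 and Hsd17b7, against 460 of the 15119 genes tested. Microglia had 3 higher, Srebf1, Fasn and Fads2, against 4.84%, and 0 lower, against 3.85%, also at an unadjusted p under 0.05. Foreign RNA was left in these counts. In endothelial cells 0 were called in either direction, against 2.45% and 3.19%, and 4 were higher at an unadjusted p under 0.05. In pericytes 5 members could be tested and 0 were called, against 0.0573% and 0.0286%, with 0 also at an unadjusted p under 0.05.

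Srebf1 lies at chr11:60199089-60222581 on the minus strand (GRCm38, GENCODE vM21) and its transcript variants were not told apart here. In oligodendrocytes it was at 99.1 CPM with DOCA-salt and 58.3 with sham in hippocampus, from 2411 and 1970 UMIs. In cortex it was at 98.9 and 58.1 CPM, from 1621 and 1111 UMIs. The 2 DOCA-salt libraries thus lay together and apart from the 2 sham libraries, whatever the tissue. The ratios were 1.70 (1.60 to 1.80) and 1.70 (1.57 to 1.84). At most 12.2% of the level was estimated as foreign. Its exons share 109 bases with Rai1 on the opposite strand, and the counting strand is not given in the sources used here.

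The Srebf1 ratio was also taken within single clusters of oligodendrocytes, a check added after the result was seen, since the hippocampus sham cells stood apart. It was 1.58 to 1.89 in 5 clusters of hippocampus and 1.56 to 2.39 in 4 clusters of cortex. In astrocytes the ratio was 1.24 (1.14 to 1.35) in hippocampus and 1.28 (1.23 to 1.33) in cortex. In microglia it was 1.41 (1.19 to 1.68) and 1.32 (1.13 to 1.53), with 31.7% to 56.0% of the level estimated as foreign. In endothelial cells it was 1.37 (1.01 to 1.85) and 1.29 (0.909 to 1.82). The point estimate was above 1 in all 4 classes and both tissues, and only the endothelial interval of cortex included 1. Astrocyte marker RNA in endothelial cells was at 3.65%, 1.83%, 8.85% and 7.82% of the astrocyte level, so it was also higher with DOCA-salt. The classes are thus not separate readings of Srebf1, and the part of foreign RNA in these ratios was not tested.

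Other transcripts moved in the same direction in the same cells. Of 14 genes of tissue dissociation and the immediate early response, such as Fos and Jun, 10 stood past 1.5-fold higher and 0 lower in oligodendrocytes of each tissue. Their summed level was 4420, 2251, 4984 and 2110 CPM, so it split by treatment as Srebf1 did. In astrocytes 8 were higher in hippocampus and 9 in cortex, and the sum was 2673, 1564, 2536 and 1460 CPM. In microglia 0 were higher and 2 lower in each tissue, at 38526, 38255, 34284 and 38739 CPM. Endothelial cells held 30051 to 40058 CPM of these genes. Microglial marker RNA was at 3.2%, 2.6%, 3.3% and 2.6% of the microglial level in astrocytes. In oligodendrocytes it was at 2.46%, 2.02%, 2.50% and 2.12%. The astrocyte and oligodendrocyte sums therefore hold free RNA of these classes, and its part in them was not tested. Among all genes 10.2% were past 1.5-fold higher in oligodendrocytes of hippocampus and 9.02% in those of cortex. The part of this response in the Srebf1 difference was not tested.

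Across the set the oligodendrocyte differences were small. The median log2 ratio was 0.03 in hippocampus and -0.11 in cortex, against 0.06 and 0.04 over all genes. In hippocampus 2 of 30 genes were past 1.5-fold higher, against 10.2%, and 0 lower, against 4.18%. In cortex 1 was higher, against 9.02%, and 1 lower, against 4.17%. These were Srebf1 and Fads2 in hippocampus, and in cortex Srebf1 and, on the lower side, Tm7sf2 at 0.656 (0.533 to 0.805). The Fads2 ratios of 1.80 and 1.41 rest on a level that was mostly foreign by the estimate.

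Read by intervals, 8 of the 30 genes were lower in both tissues in oligodendrocytes, against 8.1% of all genes measured in both, and 5 were higher, against 12.7%. The 8 were all enzymes of cholesterol synthesis: Hmgcs1, Idi1, Fdps, Fdft1, Cyp51, Msmo1, Ebp and Dhcr7. None of the 5 fatty acid synthesis genes and 4 desaturases was among them. Cyp51, the lanosterol demethylase, was at 62.7, 89.3, 72.1 and 106 CPM. Its ratio was 0.703 (0.661 to 0.748) in hippocampus and 0.681 (0.633 to 0.732) in cortex, the lowest of the 8 in both, and 0.496 to 0.864 within single clusters. Some of its exonic sequence, 166 bases, is shared with Akap9 on the opposite strand.

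Idi1 had ratios of 0.734 (0.689 to 0.783) and 0.684 (0.633 to 0.740). Hmgcs1 had 0.797 (0.764 to 0.833) and 0.684 (0.646 to 0.723), and Fdps 0.840 (0.811 to 0.870) and 0.733 (0.703 to 0.766). Within hippocampus clusters, Hmgcs1 and Idi1 had point estimates above 1 in 1 of 5, at 1.13 (0.943 to 1.35) and 1.19 (0.904 to 1.585). The Fdps estimate was below 1 in all 5 and in all 4 cortex clusters, at 0.819 to 0.965. Many hippocampus intervals of Hmgcs1, Idi1 and Fdps included 1, so uniformity over the cells was not shown either way. Cells were spread unevenly, with 62 of DOCA-salt against 3216 of sham in 1 hippocampus cluster and 1039 against 69 in another. Fdft1, Msmo1, Ebp and Dhcr7 lay between 0.827 and 0.917 in both tissues. For Fdft1, 774 exonic bases are shared with Ctsb on the opposite strand.

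The 5 genes higher in both tissues were Srebf1, Insig1, Scd1, Fads1 and Fads2. Insig1, at 166, 129, 156 and 128 CPM, had ratios of 1.29 (1.23 to 1.34) and 1.22 (1.15 to 1.29). Its point estimate was above 1 in all 5 hippocampus clusters and in 3 of 4 of cortex, with some of the intervals including 1. Scd1 had 1.18 (1.12 to 1.24) and 1.13 (1.05 to 1.21). Scd2, at 25341 to 50213 UMIs per library, differed by little, at 1.02 in hippocampus and 0.963 in cortex. Srebf2, the main driver of the sterol genes, was at 1.07 in hippocampus, with an interval just above 1, and at 1.08 (0.996 to 1.16) in cortex. The 8 enzymes named above thus lay on the other side of 1 from Srebf1 and Insig1. This did not hold for every enzyme of the pathway, since Mvk, at 1.21 (1.09 to 1.34), Hsd17b7, Acat2 and Sqle had hippocampus intervals above 1.

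**Figure D3:**
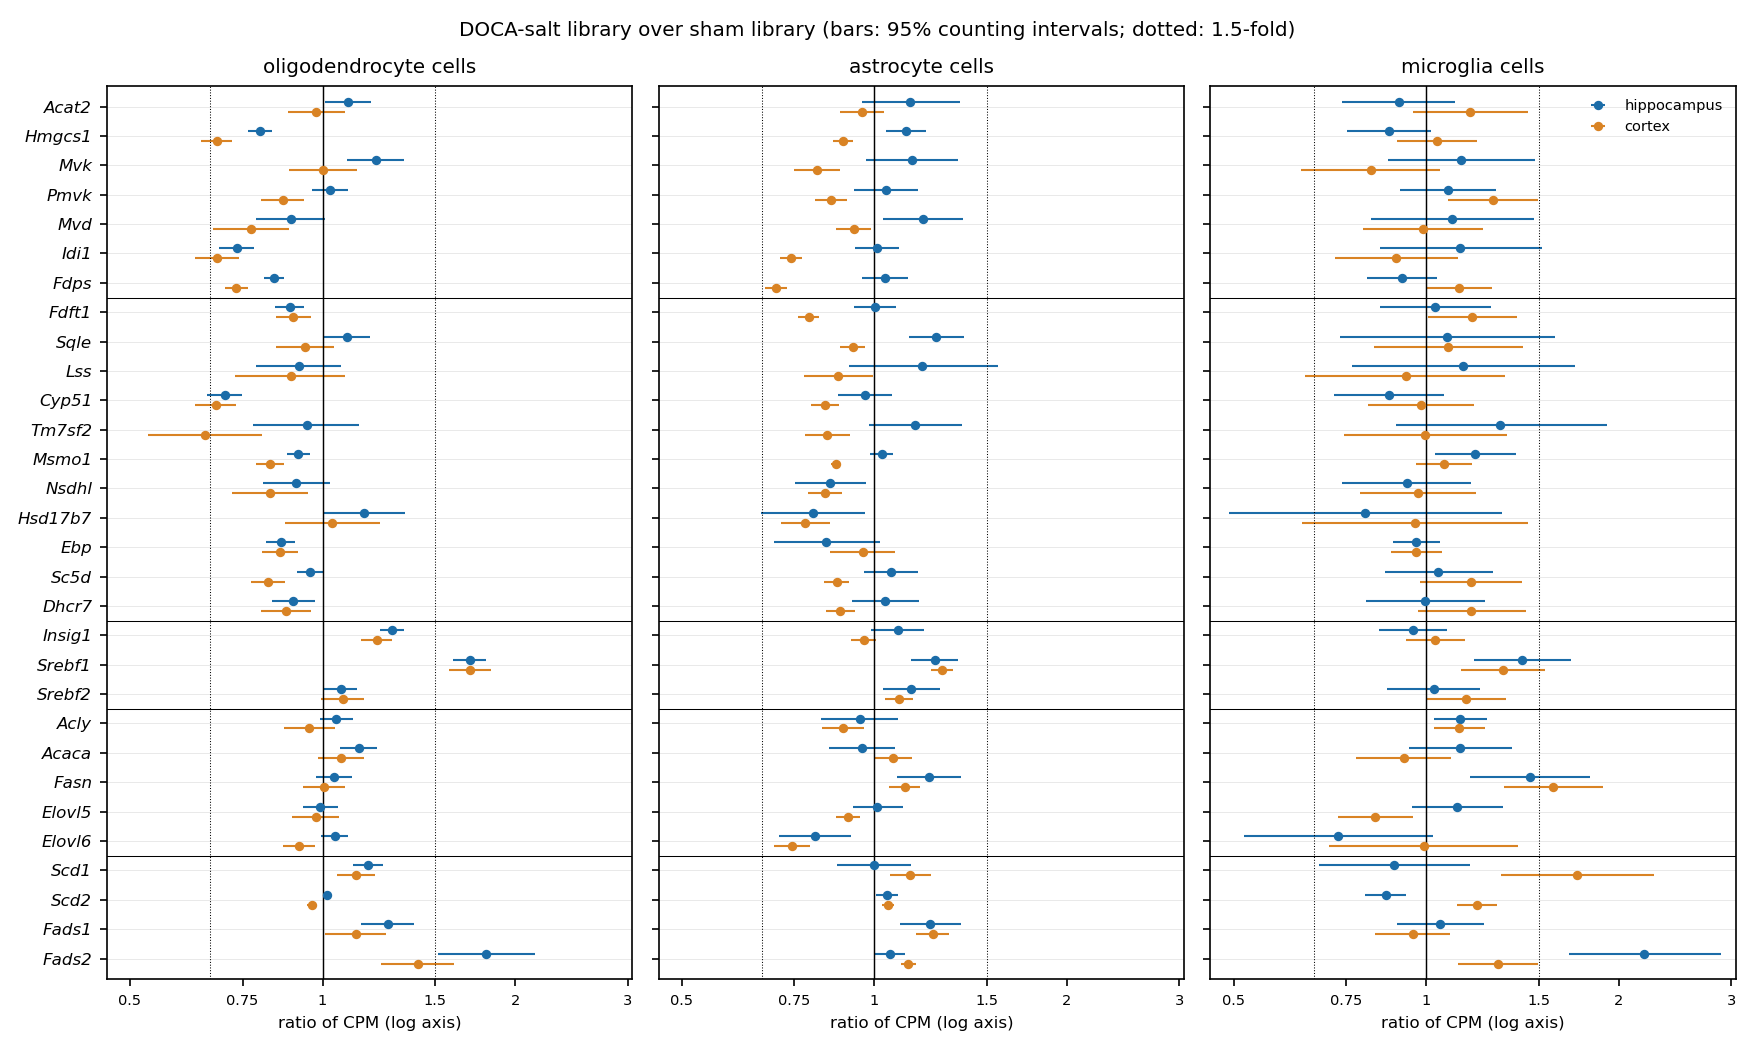
Ratio of CPM in the DOCA-salt library over the sham library (log axis) for each gene in 3 classes, hippocampus in blue and cortex in orange, bars 95% counting intervals, dotted lines at 1.5-fold. Oligodendrocyte Srebf1 stands at 1.70 in both tissues, while Cyp51, Idi1, Hmgcs1 and Fdps lie to the left of 1.

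In astrocytes 0 genes were past 1.5-fold in either direction in either tissue, where 7.36% and 9.12% of all genes were higher and 4.77% and 3.13% lower. The median log2 ratio was 0.06 in hippocampus and -0.16 in cortex. In cortex the lower genes included Fdps at 0.701 (0.674 to 0.729), Idi1 at 0.741 (0.712 to 0.772) and Fdft1 at 0.789 (0.761 to 0.818). In hippocampus Fdps was at 1.04 (0.955 to 1.13) and Idi1 at 1.01 (0.933 to 1.09), Fdft1 had an interval of 0.930 to 1.08, and the difference between tissues was not tested. Intervals were lower in both tissues for Nsdhl, Hsd17b7 and Elovl6, against 5.16% of all genes, and higher for Srebf1, Srebf2, Fasn, Scd2 and Fads1, against 7.2%. Elovl6 had 0.807 (0.709 to 0.920) and 0.743 (0.696 to 0.794). The hippocampus sham library had only 807 astrocytes, and oligodendrocyte markers in them stood at 5.92% of the level in oligodendrocytes, against 3.03% to 3.89% in the other libraries.

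In microglia 1 gene of hippocampus was past 1.5-fold higher, against 6.15%, and 2 of cortex, against 8.22%, with 0 lower, against 6.11% and 3.21%. Fasn was at 15.2, 10.5, 21.9 and 13.9 CPM, with ratios of 1.45 (1.17 to 1.80) and 1.58 (1.32 to 1.89). Srebf1, Acly, Fasn and Fads2 had intervals above 1 in both tissues, against 6.75% of all genes, and 0 genes had intervals below 1 in both, against 6.38%. Astrocyte marker RNA in microglia was at 1.91%, 0.943%, 5.01% and 3.48% of the astrocyte level, so it was also higher with DOCA-salt. Its part in the Fads2 and Srebf1 ratios was not tested. Acly had 1.13 in each tissue. The sterol genes with intervals below 1 in oligodendrocytes had intervals that included 1 or lay above it in microglia. For Hmgcs1, Idi1 and Msmo1 much of the microglial level was foreign by the estimate, and for Ebp little was. Whether microglia share the oligodendrocyte differences was not tested.

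Endothelial cells had 6 genes past 1.5-fold higher in hippocampus, against 9.15%, and 2 of 29 measured in cortex, against 8.48%, with 0 lower, against 5.24% and 5.74%. None had an interval on the same side of 1 in both tissues, against 3.62% of all genes higher and 3.59% lower. Sqle in hippocampus, at 2.17 (1.28 to 3.79), rested on 52 and 21 UMIs, of which over 50% was estimated as foreign. In pericytes 9 genes of hippocampus and 5 of cortex had 20 UMIs or more, and these counts are too few to place the set.

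Of the other lists, the 18 measured genes of cholesterol uptake, efflux and storage had a median log2 ratio of 0.34 in hippocampus oligodendrocytes, and the 17 measured in cortex had 0.23. Past 1.5-fold higher were 2 in each tissue, close to the 10.2% and 9.02% of all genes, so the count does not set the list apart. Apoe, which encodes the main apolipoprotein of the brain, was 1.57-fold (1.56 to 1.59) and 1.54-fold (1.53 to 1.56) higher in the DOCA-salt oligodendrocytes, at 4442, 2821, 5853 and 3794 CPM. Astrocytes held 17523 to 23188 CPM of Apoe, and the part of their free RNA in the oligodendrocyte value was not tested. Stard4, a cholesterol carrier, had 1.44 (1.18 to 1.76) and 1.54 (1.20 to 1.97), and the lipoprotein receptor gene Vldlr 1.28 (1.22 to 1.35) and 1.25 (1.17 to 1.34). The 24 other synthesis genes had medians of 0.03 and -0.01, and the 13 myelin genes -0.10 and -0.21 with 0 past 1.5-fold. The 12 oxidation genes had medians of 0.00 and 0.05.

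The third comparison set hippocampus against cortex within each treatment. Most genes of the set were lower in hippocampus, by little, from 19 of 30 in astrocytes with DOCA-salt to 28 of 30 in microglia with DOCA-salt. The median log2 ratio was -0.04 with DOCA-salt and -0.21 with sham in oligodendrocytes, -0.09 and -0.31 in astrocytes, -0.30 and -0.32 in microglia and -0.29 and -0.32 in endothelial cells. Over all genes the median was within 0.03 of 0 in each of these classes. With the foreign RNA estimate subtracted, the endothelial medians turned to 0.26 with DOCA-salt and 0.23 with sham, and the microglial median with DOCA-salt went to -0.0073, so the direction in these classes was not shown to be their own. Astrocyte marker RNA differed between the tissues as well. In oligodendrocytes it was at 1.91% and 1.08% of the astrocyte level in hippocampus (DOCA-salt and sham) and at 4.59% and 3.48% in cortex. In microglia it was at 1.91% and 0.943% against 5.01% and 3.48%, and in endothelial cells at 3.65% and 1.83% against 8.85% and 7.82%.

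The additive test, with treatment as the other term, called 15 of the 30 genes lower in hippocampus astrocytes, against 11.9% of all genes, and Ebp higher, against 10.1%. The log2 change was -0.59 ± 0.09 (SE) for Msmo1, with an edgeR adjusted p of 1.0e-09, and 0.40 ± 0.11 for Ebp, with 0.0044. In oligodendrocytes 9 were lower, against 5.24%, and Acly was higher, against 2.78%, at 0.57 ± 0.05 with an adjusted p of 2.3e-06. In microglia 13 were lower, against 8.61%, and 0 higher, against 5.75%, with 1 higher at an unadjusted p under 0.05. In endothelial cells Fads1, Fads2 and Msmo1 were lower, against 1.64%, and 0 were higher, against 0.776%, also at an unadjusted p under 0.05. In pericytes 0 of 5 members tested were called, against 0.0286% higher and 0.658% lower, and 1 was lower at an unadjusted p under 0.05. These tests run on the counts with foreign RNA left in.

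In astrocytes 14 of the 30 genes had intervals below 1 under both treatments, against 12.2% of all genes, and Ebp and Scd2 had intervals above 1, against 10%. Msmo1 was the clearest, at 0.730 (0.711 to 0.749) and 0.620 (0.597 to 0.643). Dhcr7, the last enzyme of the Kandutsch-Russell branch, was at 0.701 (0.650 to 0.756) and 0.596 (0.535 to 0.662), and Mvd at 0.769 (0.704 to 0.839) and 0.599 (0.525 to 0.682). Ebp was at 1.25 (1.09 to 1.44) and 1.43 (1.20 to 1.70), so its direction was again opposite to that of its pathway neighbours. Past 1.5-fold there were 0 genes in either direction with DOCA-salt, against 8.41% higher and 5.15% lower. With sham 0 were higher, against 11.6%, and 4 lower, against 7.2%.

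In oligodendrocytes 10 genes had intervals below 1 under both treatments, against 6.58%, and 2 had intervals above 1, Acly and Elovl5, against 4.37%. Acly was at 82.0 and 78.0 CPM in hippocampus and 52.6 and 55.2 in cortex, with ratios of 1.56 (1.44 to 1.69) and 1.41 (1.32 to 1.52). It was the 1 gene past 1.5-fold higher with DOCA-salt, against 4.67%, and 0 were with sham, against 5.32%. Past 1.5-fold lower were 1 gene with DOCA-salt, against 6.54%, and 2 with sham, against 7.47%. Fads2, at 0.406 (0.351 to 0.469) and 0.317 (0.269 to 0.373), was past 1.5-fold in both. Its oligodendrocyte level was mostly foreign by the estimate, and astrocyte markers in these cells differed by tissue in the same direction.

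In microglia 6 genes were past 1.5-fold lower in hippocampus with DOCA-salt, against 8.23%, and 7 with sham, against 6.53%, with 0 higher, against 5.04% and 9.97%. Fads2, Msmo1, Sqle and Mvd were past it under both treatments. Msmo1 was at 28.9 and 24.2 CPM in hippocampus and 54.8 and 51.4 in cortex, a ratio of 0.528 (0.471 to 0.592) with DOCA-salt and 0.471 (0.411 to 0.539) with sham. Of its microglial level 66.4% to 101% was estimated as foreign, and for Sqle 84.6% to 119%. With the foreign estimate subtracted, the Msmo1 and Sqle differences in the sham libraries changed sign. Mvd, at 0.599 (0.470 to 0.763) and 0.540 (0.410 to 0.707), had a lower foreign percentage, of 26.7% to 44.6%.

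Endothelial cells gave 5 genes past 1.5-fold lower with DOCA-salt, against 6.87%, and 10 of 29 with sham, against 7.15%, and 0 and 1 higher, against 5.16% and 6.74%. Fads2 was at 0.255 (0.176 to 0.366) and 0.181 (0.113 to 0.282), Msmo1 at 0.603 (0.477 to 0.762) and 0.634 (0.496 to 0.809) and Fads1 at 0.447 (0.326 to 0.613) and 0.574 (0.386 to 0.851). Of the Msmo1 level, at 43.9, 40.6, 72.9 and 64.1 CPM, the foreign estimate was 76.8% and 60.0% in hippocampus and 132% and 150% in cortex, so the cortex level lay wholly within it and the ratio was not shown to be endothelial. For Fads2 the estimate was 80.1% to 130%, against 26.7% to 33.6% for Fads1. Fads1 thus stood lower in hippocampus at a level that was mostly not foreign by the estimate. In pericytes 11 genes with DOCA-salt and 4 with sham had 20 UMIs or more.

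**Figure D4:**
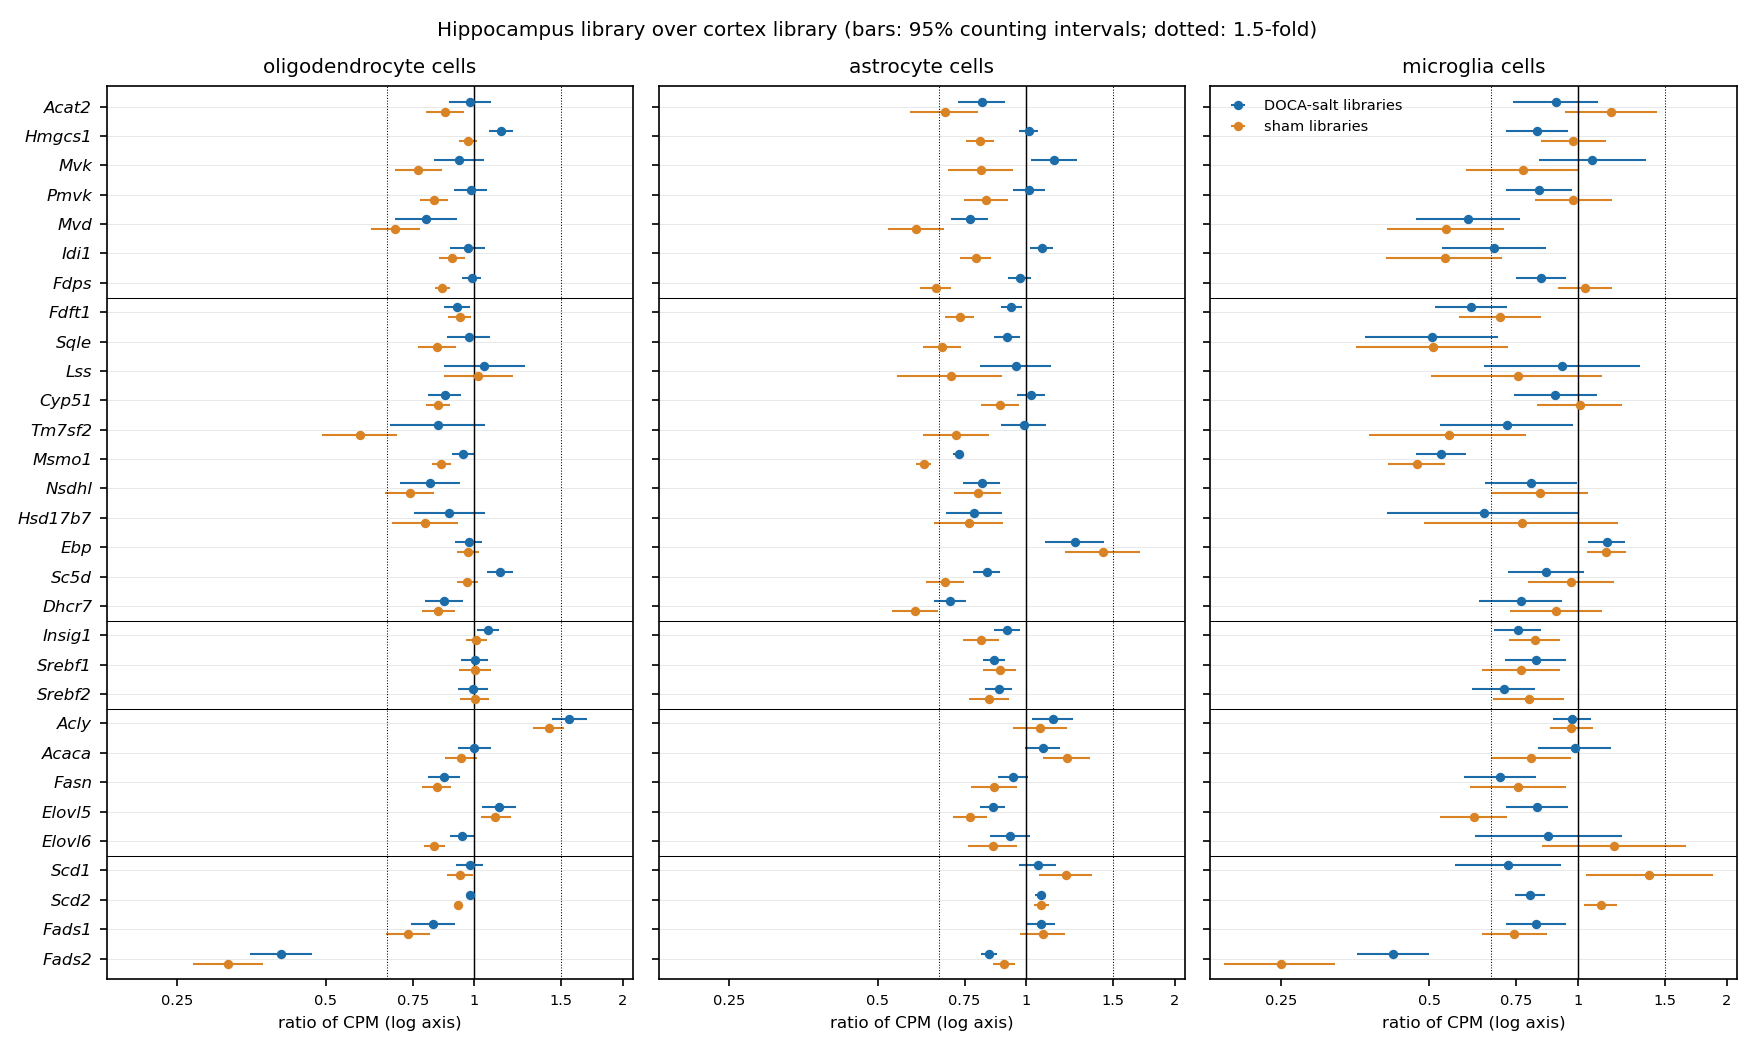
Ratio of CPM in the hippocampus library over the cortex library (log axis) for each gene in 3 classes, DOCA-salt in blue and sham in orange, bars 95% counting intervals, dotted lines at 1.5-fold. Most points lie left of 1, Acly in oligodendrocytes and Ebp in astrocytes lie right of it, and Fads2 lies far left in oligodendrocytes and microglia.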

How the data were processed

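The deposited matrices hold whole-number UMI counts per gene and barcode for 4 libraries, made with a SeekOne Digital Droplet 3' kit per the labels. Per the submitters' processing notes, the tools were fastp, STAR, Subread and Seurat, and the build was GRCm38. Versions, annotation and counting strand are not given in the sources used here.

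Barcodes under 300 genes or over 20% mitochondrial UMIs were dropped, and doublets called by Scrublet in scanpy 1.11.5 at an expected rate of 0.08 were removed (4.22% to 6.64%). A cell joined 1 of 5 classes when at least 5 markers of that class were detected at 25% or more of a reference level and all other of 16 marker sets were below 25%. The gate's thresholds were set from marker distributions, and the reference level was revised once, because free haemoglobin RNA had set that of erythroid cells too low. Between 6 and 47 cells per class and library lay near a threshold. UMIs were summed by class and library. Class contrasts used edgeR 4.0.16 in R 4.3.3 with TMM scaling, quasi-likelihood tests and Benjamini-Hochberg adjustment. An additive edgeR model of tissue and treatment over the 4 libraries of a class was added after the ratios were seen. The SE printed with an edgeR change is the size of the log2 change divided by the square root of its F statistic. It is therefore approximate and need not match the p-value. Library ratios needed 20 UMIs in the pair and used scipy 1.17.1. The tests were checked on simulated data.

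Members and lists were chosen with earlier results of these data known. Values per library are printed for the 4 members highest in each class, for the 3 largest and 3 smallest called changes of a class contrast, for members past 1.5-fold in both tissues or both treatments, and for others that the text singles out after their values were seen. At most 3 genes of another list are named. Alternatives were DESeq2 1.42.0, no filter on low counts, each library left out, a stricter gate, classes from clusters, doublets kept, at most 10% mitochondrial UMIs, cells thinned to 2000 UMIs, equal weight per cell, a minimum of 1 or 100 UMIs, TMM scaling of ratios and subtraction of foreign RNA. Intervals cover counting error only. Libraries are not known to be separate animals, so p-values of the class test measure the spread between these 4 libraries. Those of the additive model rest mostly on a spread shared over genes, and wholly so in astrocytes with TMM scaling. Coordinates are from GENCODE vM21.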

Additional observations from a re-analysis of the deposited data

Results flagged for a closer look

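In 8 cases a gene stood on one side of 1 in one comparison and on the other side in its counterpart, with both counting intervals clear of 1. For the treatment ratio this held for 1 of 30 genes in oligodendrocytes, 3 in astrocytes and 1 in microglia. The shares of all genes were 0.799%, 1.89% and 1.6%. For the tissue ratio it held for 0, 2 and 2 genes, against 1.24%, 0.677% and 1.1%. These differences between tissues or treatments were not tested, since an interaction term would leave no residual degree of freedom over 4 libraries. Each is given as the log2 difference between the treatment ratio of hippocampus and that of cortex.

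In astrocytes Hmgcs1 differed by 0.32, Mvd by 0.36 and Sqle by 0.43, each higher with DOCA-salt in hippocampus and lower in cortex. Sqle was at 1.25 (1.13 to 1.38) in hippocampus and at 0.926 (0.885 to 0.969) in cortex. Mvk differed by 0.49 and Idi1 by 0.45. For these genes it was the tissue ratio that changed side, with Mvk in hippocampus at 1.14 (1.02 to 1.27) of cortex with DOCA-salt and at 0.809 (0.695 to 0.938) with sham. All 5 are enzymes of cholesterol synthesis, and the astrocytes of the hippocampus sham library were the fewest, at 807.

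In microglia Scd2 differed by -0.48, lower with DOCA-salt in hippocampus at 0.864 (0.802 to 0.932) and higher in cortex at 1.20 (1.12 to 1.29). Scd1 differed by -0.95, and its tissue ratio changed side between treatments. Over 68% of both levels was estimated as foreign to microglia. In oligodendrocytes Scd2 differed by 0.08, at 1.02 in hippocampus and 0.963 in cortex, a small difference on 25341 to 50213 UMIs per library.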

How the results depend on the processing

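With each library left out in turn, the genes higher in oligodendrocytes numbered 16 to 19 and in astrocytes 26 to 28, and those lower in microglia 20 to 22, in endothelial cells 8 to 10 and in pericytes 8 to 11. The 1 lower gene of oligodendrocytes and the 1 of astrocytes remained, and the higher calls in microglia, endothelial cells and pericytes stayed at 0. DESeq2, no count filter, the stricter gate, doublets kept and the mitochondrial limit of 10% kept these counts within 1.5 times. Scaling to total UMIs, chosen after seeing the data, left 5 lower genes in pericytes. In the additive model it left 2 genes lower with DOCA-salt in astrocytes, against 460 of the 15119 genes tested.

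With RNA of other classes subtracted, the median log2 ratio of hippocampus over cortex was -0.0073 in microglia and 0.26 in endothelial cells with DOCA-salt, and 0.23 in endothelial cells and -0.089 in oligodendrocytes with sham. With cells thinned to 2000 UMIs the last was -0.090. Under that subtraction, 2 single-gene log2 ratios of the sham microglia changed sign, to 0.43 for Msmo1 and 3.97 for Sqle, at levels where little of the RNA is left. The causes were not tested beyond the subtraction itself. Over all alternatives, 309 values of medians and counts stayed close to the reported ones and 7 did not, as did 130 values of single genes against 17.

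Treatment and tissue ratios have no value with a library left out, and the additive model then has no residual degree of freedom. No analysis paired by mouse was possible, because each tissue and treatment had 1 library. Whether the tissues came from the same mice is also not given. The class test holds library and the additive model holds tissue and treatment as terms. Depth limits pericytes most, with 1 to 43 UMIs per gene where detected.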
